A study of Rattus norvegicus with 24 samples.

Results

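Claudins are the proteins that make tight junctions tight or leaky, and 10 of them, known from different parts of the nephron or from its blood vessels, were followed across 24 kidneys of PKD/Mhm (Cy/+) rats. The members were Cldn1, Cldn2, Cldn3, Cldn4, Cldn5, Cldn7, Cldn8, Cldn10, Cldn16 and Cldn19, chosen by name, with earlier results of these data known. Each was matched by gene symbol to 1 of the 17334 genes in the deposited tables, and 10 of 10 passed the filter on low counts that left 12778 genes. The animals are given as male rats heterozygous for the Cy mutation, a missense change in Anks6 that causes polycystic kidney disease. They were killed at 8 months of age, after 6 months of monthly treatment in the treated groups. Untreated animals (Ctrl) were compared with animals given conditioned medium (CoCM), intraperitoneal ABCB5+ cells (i.p. ABCB5+) or intravenous ABCB5+ cells (i.v. ABCB5+), with 6 animals in each group. ABCB5+ cells are human stromal cells isolated from skin, so the cells were foreign to the rat host. CoCM was the fluid taken from a culture of these cells with human THP-1-derived macrophages that had been stimulated with interferon-gamma and lipopolysaccharide. The route of CoCM is given as intravenous in the methods of the study and as intraperitoneal in its public record. No vehicle-injected and no non-cystic animals were analysed here, and cystic animals had been recognised by palpation of the abdomen. The genotype of single animals was not tested here. The RNA came from whole left kidney, so fewer cells of a segment and less RNA per cell cannot be told apart.

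A claudin spans the membrane and meets claudins of the neighbouring cell, and the set of claudins in a segment decides which ions and how much water pass between the cells. Cldn2 forms a cation and water pore in the proximal tubule, while Cldn16 and Cldn19 act together in the thick ascending limb, where their loss in people causes wasting of magnesium and calcium. Cldn10 is made as different isoforms that serve as an anion pathway in the proximal tubule and a sodium pathway in the thick ascending limb, and a gene-level value does not separate them. Cldn3, Cldn4, Cldn7 and Cldn8 belong to the distal nephron and collecting duct. Cldn1 is known from the parietal cells of Bowman's capsule, and Cldn5 seals endothelium.

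The starting regions of 5 of these genes are shown because their levels moved together, or in opposite directions, from animal to animal. RefSeq (assembly GRCr8) gave promoters for 8 of the 10 members, all but Cldn2 and Cldn4. The 250 bases that end just before the start used in that table are printed for 5 of them 5′ to 3′ on the strand of the gene, and capitals mark matches to 4 motifs searched on both strands. The motifs were the TATA box TATAAA, the GC box GGGCGG, the E-box CAGGTG and the HNF1 motif GTTAAT, and no printed matches overlapped. Cldn16 lies at chr11:87814397-87814646, minus strand. The window of Cldn19, at chr5:138148325-138148574, plus strand, lies inside the annotated gene, which starts at base 138148234, so it is not upstream of the gene and is not printed. Cldn1 lies at chr11:87926126-87926375, plus strand, and Cldn10 at chr15:102269608-102269857, plus strand. Cldn3 lies at chr12:27346548-27346797, minus strand, and Cldn7 at chr10:55188420-55188669, plus strand.
Cldn16: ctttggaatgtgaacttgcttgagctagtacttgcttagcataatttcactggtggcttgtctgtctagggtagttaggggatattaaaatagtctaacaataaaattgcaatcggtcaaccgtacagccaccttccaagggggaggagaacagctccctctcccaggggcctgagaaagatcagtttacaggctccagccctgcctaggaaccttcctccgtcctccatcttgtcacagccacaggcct
Cldn1: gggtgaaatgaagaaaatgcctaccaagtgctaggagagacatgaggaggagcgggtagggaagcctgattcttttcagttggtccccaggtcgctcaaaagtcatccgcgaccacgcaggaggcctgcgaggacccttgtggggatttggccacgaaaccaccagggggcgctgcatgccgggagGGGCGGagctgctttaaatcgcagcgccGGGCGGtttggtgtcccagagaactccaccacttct
Cldn10: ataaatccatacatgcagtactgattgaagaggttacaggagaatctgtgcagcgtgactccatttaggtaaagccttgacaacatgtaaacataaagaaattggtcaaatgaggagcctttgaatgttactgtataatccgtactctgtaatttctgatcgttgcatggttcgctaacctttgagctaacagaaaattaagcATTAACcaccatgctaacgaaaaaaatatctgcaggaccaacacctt
Cldn3: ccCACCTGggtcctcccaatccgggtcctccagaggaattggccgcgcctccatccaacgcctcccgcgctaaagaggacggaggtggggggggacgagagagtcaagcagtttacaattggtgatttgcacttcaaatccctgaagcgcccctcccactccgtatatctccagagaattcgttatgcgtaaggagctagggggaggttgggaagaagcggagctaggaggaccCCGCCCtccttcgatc
Cldn7: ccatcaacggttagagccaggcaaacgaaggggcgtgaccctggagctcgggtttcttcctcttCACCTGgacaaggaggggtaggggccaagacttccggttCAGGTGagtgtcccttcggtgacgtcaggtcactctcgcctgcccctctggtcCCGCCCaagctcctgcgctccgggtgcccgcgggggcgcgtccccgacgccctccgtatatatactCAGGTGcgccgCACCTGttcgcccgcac
Cldn16 held none of the 4 motifs in this window. Cldn1 held the GC box at 2 places and had 59.2% G and C, whereas Cldn10 had 38% and held the HNF1 motif, 47 to 42 bases before the start. Cldn3 and Cldn7 both held the E-box, 1 match in Cldn3 and 4 in Cldn7, and both held a GC box. Among 33469 rat promoters of this length, 30.5% held the GC box, 15.9% the E-box, 6.45% the HNF1 motif and 12.9% the TATA box. Among the windows of the 8 claudins, that of Cldn19 inside its gene included, 5 held the GC box, 2 the E-box, 1 the HNF1 motif and 0 the TATA box. Cldn16 and Cldn1 are neighbours on chromosome 11 and Cldn3 and Cldn4 on chromosome 12, with 0 protein-coding genes between them in that assembly.

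The libraries held 9304630 to 14125457 estimated counts, so 3 counts in the smallest library correspond to 0.322 CPM (counts scaled to the library total). Before the claudins are compared, 4 animals have to be named, because they stood apart from the other 20 in the transcriptome as a whole. On the first principal component of all genes except the 10 claudins, which held 56.3% of the variance, the score was 97.4 for animal 39 of the CoCM group, 80.8 for animal 38 of the i.p. ABCB5+ group, and 87.1 and 86.3 for animals 36 and 37, both given cells i.v. The other 20 animals lay between -53.0 and 11.5. Havcr1, the kidney injury molecule, was at 1.80 to 8.51 TPM (transcripts scaled to length and library total) in these 4 animals and at 31.1 to 142 TPM in the other 20. Spp1, the osteopontin gene, was at 326 to 566 TPM in the 4 and at 6141 to 13259 TPM in the other 20. The summed CPM of 10 of 10 markers of injured tubule was 1065 to 1612 in the 4 and 9154 to 17515 in the other 20. Spp1 and Havcr1 are members of that list, so the sum repeats their values in part. The summed CPM of 7 of 7 proximal tubule markers was 6733 to 11456 in the 4 and 1996 to 6336 in the other 20. That of 4 of 4 thick ascending limb markers was 9096 to 12549 against 1912 to 9022. Such counts give the markers summed, and a sum follows its highest markers most. Of the proximal markers, Slc34a1 was at 1946 to 2951 TPM in the 4 and 357 to 1855 in the other 20. Lrp2 was at 77.9 to 187 and 32.5 to 161 TPM, so it did not separate them. Fibroblast markers (4 of 4) summed to 164 to 527 CPM in the 4 and 719 to 3101 in the other 20, and macrophage markers (4 of 4) to 40.1 to 123 and 191 to 534. All 4 were treated animals, and the comparisons with Ctrl are therefore given with and without them. Controls carry animal numbers up to 24 and treated animals start at 26, so treatment and numbering order cannot be told apart.

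In untreated cystic kidneys all 10 claudins were well expressed, and Cldn2 had the highest median. The following levels are TPM, a unit per transcript length that lets genes be set side by side. The Ctrl medians were 187 for Cldn2, 133 for Cldn8, 128 for Cldn4 and 123 for Cldn7. They were 75.7 for Cldn19, 52.0 for Cldn3, 51.9 for Cldn10, 46.7 for Cldn16, 42.1 for Cldn5 and 25.9 for Cldn1. Most neighbours in this order overlapped in their Ctrl ranges, and the order within the first 4 and from Cldn3 to Cldn5 did not differ beyond the spread. Cldn19 exceeded Cldn3 in 6 of 6 Ctrl animals and 24 of 24 animals, and Cldn5 exceeded Cldn1 in the same numbers. Cldn7 exceeded Cldn19 in 5 of 6 Ctrl animals, with overlapping ranges. The 10 claudins summed to 813 to 1072 TPM in Ctrl, 864 to 1068 with CoCM, 850 to 1197 with i.p. cells and 793 to 1155 with i.v. cells.

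**Figure D1:**
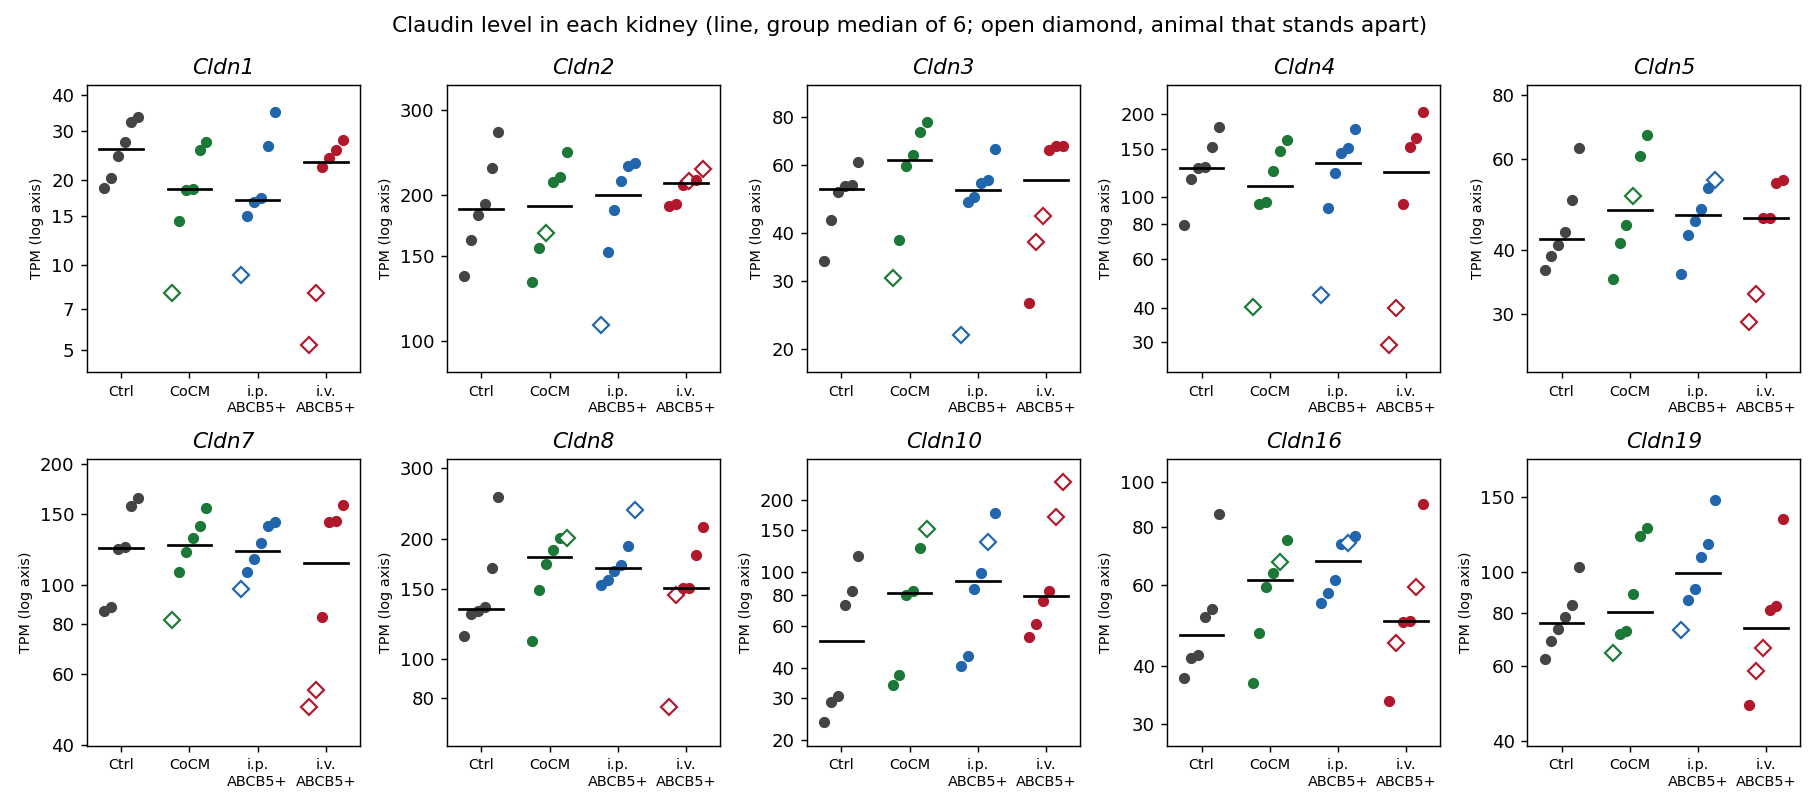
Level of each of the 10 claudins in TPM (log axis) in every kidney of the 4 groups, where filled circles are single animals, open diamonds are the 4 animals that stood apart, and the black line is the median of 6 animals. The 4 diamonds are the lowest points for Cldn1 and Cldn4 and lie among the highest for Cldn10, and the groups overlap in every panel.

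The proximal pore claudin Cldn2 had similar medians in the 4 groups. Its lowest, median and highest values were 136, 187 and 271 TPM in Ctrl, and 133, 190 and 246 in CoCM. They were 108, 200 and 233 in i.p. ABCB5+, and 190, 212 and 227 in i.v. ABCB5+. The groups overlapped, and the i.v. ABCB5+ animals lay inside the range of Ctrl.

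Cldn10, serving proximal tubule and thick ascending limb, was the most variable of the 10. Its lowest, median and highest values were 23.7, 51.9 and 117 TPM in Ctrl, and 33.8, 81.8 and 151 in CoCM. They were 40.5, 92.2 and 176 in i.p. ABCB5+, and 53.5, 79.6 and 237 in i.v. ABCB5+. The highest animal stood 10.03-fold above the lowest, and 7.42-fold among the 20 animals left without the 4 named above. The SD of its log2 CPM within groups was 0.99 over 24 animals and 0.86 over the 20, against a median of 0.30 and 0.23 over all genes tested. In the 20 animals 97.6% of genes had a smaller SD. Every group held animals in the lower and in the upper part of this range.

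Cldn16 and Cldn19, the partners of divalent cation uptake in the thick ascending limb, had their highest medians in i.p. ABCB5+. For Cldn16 the lowest, median and highest values were 37.8, 46.7 and 85.4 TPM in Ctrl, 36.8, 61.5 and 75.0 with CoCM, 54.9, 67.4 and 76.5 with i.p. cells, and 33.7, 50.03 and 89.6 with i.v. cells. For Cldn19 they were 62.4, 75.7 and 102 TPM in Ctrl, 64.6, 80.5 and 127 with CoCM, 73.0, 99.5 and 147 with i.p. cells, and 48.7, 73.7 and 133 with i.v. cells. All i.p. animals were above the 5 lowest Ctrl animals in Cldn16, and Ctrl animal 24 was above all i.p. animals.

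Of the distal claudins, Cldn4 is a barrier to cations in the collecting duct. Its lowest, median and highest values were 79.2, 128 and 179 TPM in Ctrl, 40.1, 110 and 162 with CoCM, 44.3, 134 and 176 with i.p. cells, and 29.3, 123 and 204 with i.v. cells. Cldn8, which works with Cldn4 in the chloride pathway, ranged from 114 to 254 TPM in Ctrl, 111 to 202 with CoCM, 153 to 236 with i.p. cells and 76.1 to 214 with i.v. cells. Cldn7, which lines the lateral membrane of these cells, ranged from 86.2 to 164 TPM in Ctrl and from 49.8 to 157 over the treated groups. Cldn3, a general barrier claudin, ranged from 33.8 to 61.4 TPM in Ctrl and from 21.8 to 77.7 over the treated groups. The ranges of treated and untreated animals overlapped for each of these 4 genes.

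Cldn1 and Cldn5 were set here with cells outside the tubule, but RNA of whole kidney does not show which cells made them. The 2 genes differed in how far the treated animals spread. The lowest, median and highest values of Cldn1 were 18.8, 25.9 and 33.6 TPM in Ctrl, 7.97, 18.6 and 27.4 with CoCM, 9.26, 17.1 and 34.8 with i.p. cells, and 5.24, 23.2 and 27.7 with i.v. cells. Cldn5 ranged from 36.5 to 63.2 TPM in Ctrl and from 28.9 to 67.0 over the treated groups. The lowest Cldn1 value of each treated group belonged to an animal that stood apart.

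To ask whether treatment changed the claudins, each treated group was compared with Ctrl in edgeR's quasi-likelihood test across all genes, with Benjamini-Hochberg adjustment. The call of a changed gene required an adjusted p below 0.05. In CoCM 0 of 10 claudins were called, where 0.00783% of all genes tested were called. With cells by either route 0 of 10 were called, where 0% of genes were. For CoCM, i.p. and i.v. cells in that order, the smallest adjusted p among the claudins was 0.513, 0.978 and 0.673. At an unadjusted p below 0.05, 0, 1 and 0 claudins passed in the same order, against 11.9%, 1.77% and 5.78% of all genes. DESeq2 called 0 of 10 in each comparison, where it called 78, 0 and 1 of 12777 genes. At an unadjusted p below 0.05 it passed 0, 1 and 1 claudins, against 1725, 277 and 968 of all genes. In none of the 3 comparisons did a claudin have groups that did not overlap, against 1.38%, 0.047% and 0.11% of all genes. With the 4 animals left out 0 of 10 were called in each, where 0 of 12884 genes were. The smallest adjusted p of a claudin was then 0.313, 0.9999 and 0.99998 in edgeR. At an unadjusted p below 0.05, 0, 1 and 0 claudins passed, against 2179, 179 and 159 of the 12884 genes.

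The single claudin below an unadjusted p of 0.05 was Cldn19 in i.p. ABCB5+. Its log2 fold change was 0.48 ± 0.21 (SE), with an unadjusted p of 0.0372 and an adjusted p of 0.978 in edgeR. In CPM 6 of 6 treated animals were above the Ctrl mean. In TPM animal 38, at 73.0, was below the Ctrl mean of 78.1. Counts of animals above the Ctrl mean are in CPM throughout. Without the 4 animals it was 0.53 ± 0.23, with an unadjusted p of 0.032. DESeq2 passed Cldn19 as well, whereas limma on log2(TPM + 1) did not. The summed thick ascending limb markers had a median of 7229 CPM with i.p. cells and 3812 in Ctrl. The log2 ratio of Cldn19 to these markers had medians of -5.77 and -5.65. The part of the markers in the difference was not tested. In CoCM and i.v. ABCB5+, which share the Ctrl animals with this comparison, Cldn19 had log2 fold changes of 0.32 ± 0.21 and 0.073 ± 0.21, and 0.38 ± 0.23 and 0.10 ± 0.24 without the 4. Its partner Cldn16 had 0.44 ± 0.23 with i.p. cells, 0.28 ± 0.23 with CoCM and 0.15 ± 0.23 with i.v. cells, none past the test. Without the 4 these were 0.35 ± 0.24, 0.20 ± 0.24 and 0.062 ± 0.26.

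The largest fitted difference belonged to Cldn10 in i.v. ABCB5+, with a log2 fold change of 1.11 ± 0.54 and 5 of 6 treated animals above the Ctrl mean. Its unadjusted p was 0.051 and its adjusted p 0.673 in edgeR. Without i.v. animal 37 alone it was 0.62 ± 0.51, and without all 4 animals that stood apart it was 0.15 ± 0.49. In CoCM the log2 fold change of Cldn10 was 0.63 ± 0.54, and 0.33 ± 0.46 without the 4 animals. In i.p. ABCB5+ it was 0.80 ± 0.54, and 0.62 ± 0.46 without them. Cldn1 had log2 fold changes of -0.37 ± 0.31 with CoCM, -0.37 ± 0.31 with i.p. cells and -0.45 ± 0.31 with i.v. cells. Without the 4 these became -0.24 ± 0.19, -0.24 ± 0.19 and -0.091 ± 0.20, in the order of CoCM, i.p. and i.v. cells. Cldn3 reached 0.31 ± 0.24 in CoCM and 0.42 ± 0.21 without animal 39 and the other three.

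**Figure D2:**
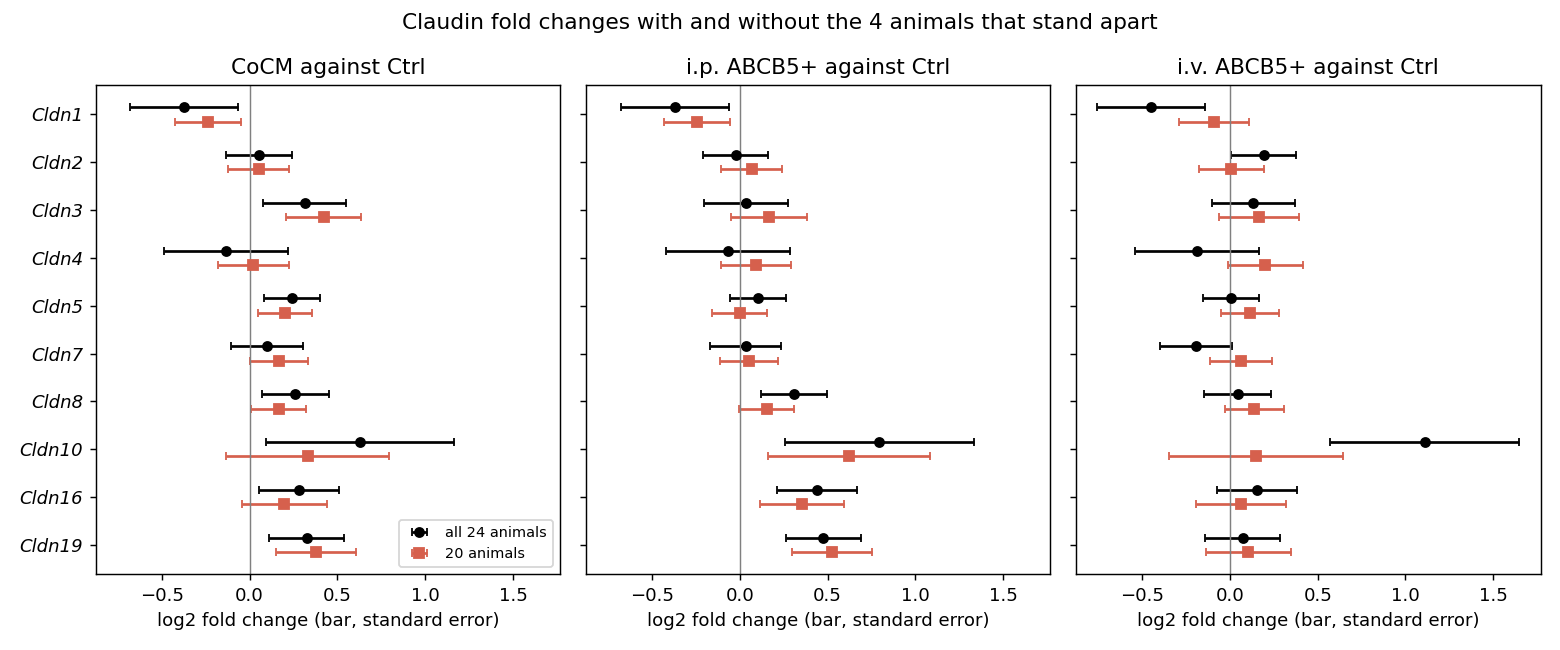
Log2 fold change of each claudin against Ctrl in the 3 treated groups, from edgeR, with black circles for all 24 animals and red squares for the 20 animals left without the 4 that stood apart, where bars are 1 standard error. Cldn10 in i.v. ABCB5+ moves from 1.11 to 0.15 when the 4 animals are left out.

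Over the 10 claudins, the median log2 fold changes with CoCM, i.p. and i.v. cells were 0.25, 0.069 and 0.059. The medians over all genes tested were 0.0088, 0.0037 and 0.013. Of the 10 fold changes, 8, 7 and 7 were above 0 in that order, and with limma on log2(TPM + 1) these counts were 7, 6 and 4. Without the 4 animals the medians were 0.18, 0.12 and 0.11. The 3 comparisons share the same Ctrl animals. Between the routes of injection 0 of 10 claudins were called and 0 had groups that did not overlap (0.0626% of all genes), with a smallest adjusted p of 0.9999, where 0% of genes were called. The log2 difference of i.p. from i.v. ABCB5+ ran from -0.31 ± 0.53 for Cldn10 to 0.40 ± 0.21 for Cldn19. Between CoCM and the mean of both cell groups 0 of 10 were called as well, with a smallest adjusted p of 0.791 and 0% of genes called. An F-test over the 4 groups called 0 of 10, with a smallest adjusted p of 0.817 and 0% of genes called. In these 3 comparisons 0 claudins had an unadjusted p below 0.05, against 2.14%, 7% and 4.71% of all genes. DESeq2 also passed 0 claudins in each, against 360, 1112 and 897 of 12777 genes. In the 20 animals 0 claudins were called in these 3, where 0 of 12884 genes were. There 0 claudins had an unadjusted p below 0.05, against 146, 1793 and 803 of the 12884 genes.

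Cldn1 and Cldn4 separated the 4 animals from the others, and Cldn10 nearly did. In the order of CoCM animal 39, i.p. ABCB5+ animal 38 and the i.v. ABCB5+ animals 36 and 37, Cldn1 was at 7.97, 9.26, 7.96 and 5.24 TPM, against 14.4 to 34.8 in the other 20. Cldn4 was at 40.1, 44.3, 39.8 and 29.3 TPM in the same order, against 79.2 to 204 in the other 20. All 4 animals lay below the range of the other 20 for both genes. Cldn10 was at 151, 133, 170 and 237 TPM, and the other 20 ranged from 23.7 to 176. Animal 37 was above 20 of 20 and each of the others above 19 of 20. Cldn14, a claudin of the thick ascending limb that blocks the Cldn16 pathway, was at 0.106 TPM in animal 39. It was listed at 0 in animals 38, 36 and 37, against 0.274 to 2.52 TPM in the 20. Cldn14 had only 0 to 32 estimated counts per library, so a few counts decide this difference. The 4 animals were singled out by their whole transcriptome, so other genes can separate them too. The share of all genes that do so is not given here. The values are therefore a description without a test, and do not set the claudins apart from other genes.

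The other claudins did not separate them in this way. Cldn7 was at 81.9, 97.6, 54.9 and 49.8 TPM in animals 39, 38, 36 and 37, against 83.1 to 164 in the 20. Cldn8 was at 202, 236, 145 and 76.1 TPM, against 111 to 254, so animal 37 alone was below the range. Cldn3 was at 30.6, 21.8, 38.1 and 44.3 TPM, against 26.4 to 77.7. Cldn2 was at 167 and 108 TPM in animals 39 and 38 and at 214 and 227 in animals 36 and 37. Cldn5 was likewise at 51.0 and 54.7 TPM in animals 39 and 38 and at 32.8 and 28.9 in animals 36 and 37. Cldn16 was at 67.0, 73.6, 59.1 and 44.9 TPM and Cldn19 at 64.6, 73.0, 58.6 and 66.1, inside the ranges of the 20.

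Of 6 ratios within an animal, which need no library scale, 3 separated the 4 animals from the 20. Cldn4 was 0.199, 0.188, 0.275 and 0.385 of Cldn8 in animals 39, 38, 36 and 37, and 0.512 to 1.12 of it in the other 20. Cldn10 was 18.99, 14.4, 21.4 and 45.3 times Cldn1 in those animals, and 0.705 to 10.1 times in the other 20. Cldn16 was 1.04, 1.01 and 1.01 of Cldn19 in animals 39, 38 and 36, above the 0.502 to 0.833 of the 20, while animal 37 had 0.679. Cldn4 was 0.489, 0.454, 0.725 and 0.588 of Cldn7, below the 0.785 to 1.45 of the 20. Cldn2 over Cldn8, at 0.831, 0.457, 1.48 and 2.99 against 0.719 to 2.05, did not separate them. Neither did Cldn3 over Cldn7, at 0.374, 0.224, 0.693 and 0.890 against 0.318 to 0.645. A ratio shows unequal levels, and does not say which of its genes moved.

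**Figure D3:**
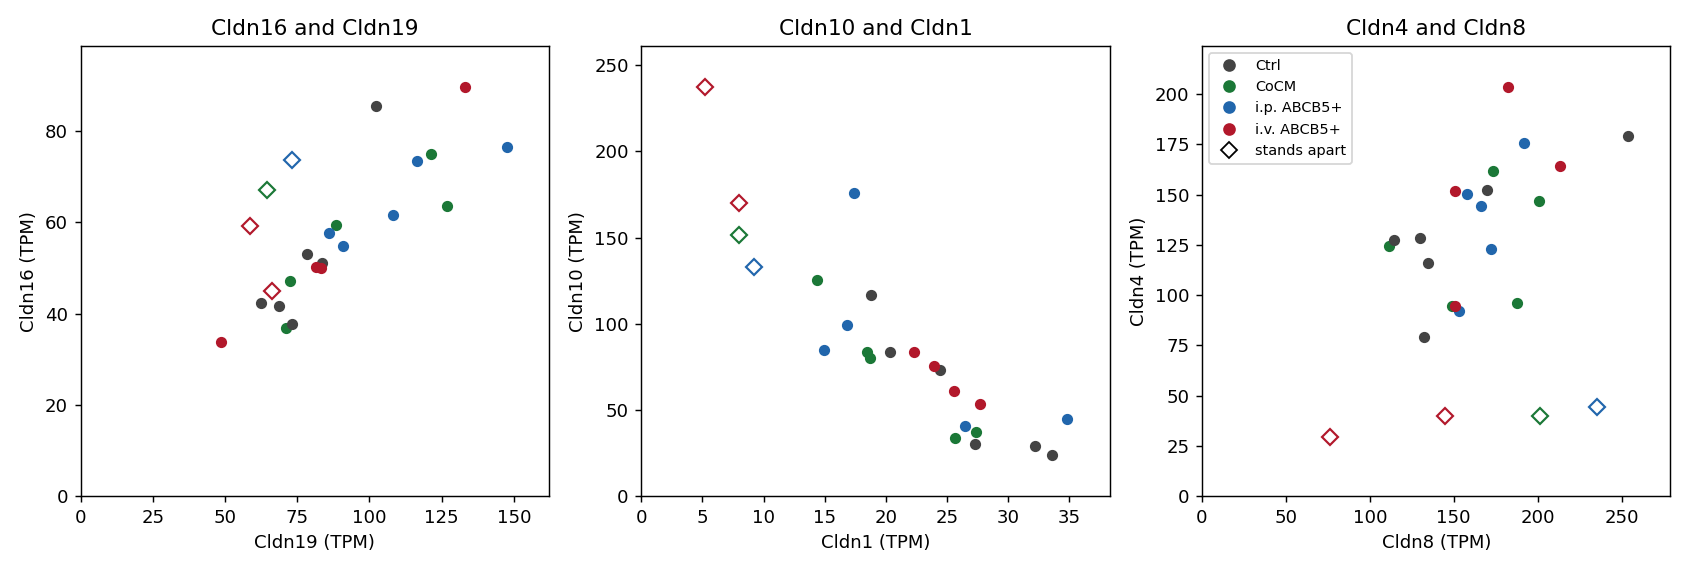
Levels of 3 claudin pairs in TPM (linear axes from 0) in 24 kidneys, coloured by group, with open diamonds for the 4 animals that stood apart. Cldn16 follows Cldn19, Cldn10 runs against Cldn1, and the diamonds fall below the other 20 animals for Cldn4 while their Cldn8 spans 76.1 to 236 TPM.

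To see which claudins varied together apart from treatment, log2 CPM values with group means removed were correlated over the 20 animals left without the 4. Of 45 pairs, 22 had a permutation p below 0.05 after Benjamini-Hochberg adjustment over the 45, 11 with r above 0 and 11 below. P-values were two-sided, from 100000 permutations within groups. All pairs share the same libraries and scaling. Cldn16 and Cldn19 gave the closest relation, with r = 0.91 and rho = 0.92 (permutation p = 1e-05 for both, the smallest these permutations can give, adjusted 0.00045), and r = 0.91 without the 2 animals farthest from the median. Among the 20, the ratio of the pair varied 1.66-fold while each gene varied 2.66- and 3.03-fold.

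Cldn1 and Cldn10 ran in opposite directions, with r = -0.88 (permutation p = 6e-05, adjusted 0.00135) and rho = -0.85 (permutation p = 0.0002, adjusted 0.00225). Without the 2 farthest animals r was -0.90. Cldn1 also ran against Cldn16, its neighbour on chromosome 11, with r = -0.76 (permutation p = 9e-05, adjusted 0.00135) and rho = -0.84 (permutation p = 5e-05, adjusted 0.00112), and r was -0.73 without 2 animals. Cldn1 and Cldn16 thus moved oppositely although they are neighbours.

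Among Cldn2, Cldn10, Cldn16 and Cldn19, the claudins of the proximal tubule and thick ascending limb, 5 of 6 pairs passed with r above 0. Cldn2 and Cldn10 had r = 0.82 (permutation p = 0.00038, adjusted 0.00285) and rho = 0.84 (permutation p = 0.00041, adjusted 0.00369), and r was 0.77 without 2 animals. Within single groups r was 0.93, 0.98 and 0.57 in Ctrl, CoCM and i.p. cells, but -0.33 with i.v. cells (n = 4). Cldn10 and Cldn16 had r = 0.71 (permutation p = 0.00026, adjusted 0.00234) and rho = 0.76 (permutation p = 0.00018, adjusted 0.00225), and r stayed at 0.71 without 2 animals. Cldn10 and Cldn19 had r = 0.63 (permutation p = 0.00206, adjusted 0.0132) and rho = 0.66 (permutation p = 0.00128, adjusted 0.00881), which missed the threshold over all 24 animals. Cldn2 and Cldn16 had r = 0.52 (permutation p = 0.0216, adjusted 0.0455) and rho = 0.50 (permutation p = 0.0351, adjusted 0.0719), and r dropped to 0.35 without 2 animals, so this relation rested on them. Within single groups r was 0.74, 0.98 and 0.13 in Ctrl, CoCM and i.p. cells, but -0.99 with i.v. cells. Cldn2 and Cldn19 did not pass, with r = 0.43 (permutation p = 0.0447, adjusted 0.0805) and rho = 0.38 (permutation p = 0.0852, adjusted 0.147). Among the same 20 animals the summed thick ascending limb markers ranged from 1912 to 9022 CPM and the proximal tubule markers from 1996 to 6336 CPM. Their part in these relations was not tested.

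Among the collecting duct claudins, Cldn7 moved with Cldn4 and Cldn3, while no pair with Cldn8 passed by r. Cldn4 and Cldn7 had r = 0.81 (permutation p = 0.00018, adjusted 0.00202) and rho = 0.69 (permutation p = 0.00137, adjusted 0.00881), and r dropped to 0.59 without Ctrl animal 24 and i.v. animal 43. Cldn3 and Cldn7 had r = 0.77 (permutation p = 0.00311, adjusted 0.0175) and rho = 0.64 (permutation p = 0.00376, adjusted 0.0188), and r dropped to 0.50 without i.v. animal 43 and Ctrl animal 22, so this relation leaned on them. Cldn3 also passed with Cldn19 of the thick ascending limb, with r = 0.61 (permutation p = 0.022, adjusted 0.0455). Its rho was 0.61 (permutation p = 0.0113, adjusted 0.0363), and r dropped to 0.37 without the same 2 animals. Cldn4 and Cldn8 had r = 0.38 (permutation p = 0.129, adjusted 0.194) and rho = 0.50 (permutation p = 0.0415, adjusted 0.0789), which did not pass. Cldn3 and Cldn4, neighbours on chromosome 12, had r = 0.52 (permutation p = 0.049, adjusted 0.0848) and rho = 0.42 (permutation p = 0.0964, adjusted 0.161), which did not pass either. The nearest relation of Cldn8 was a negative one with Cldn2, with r = -0.56 (permutation p = 0.0444, adjusted 0.0805) and rho = -0.68 (permutation p = 0.00455, adjusted 0.0205), so it passed by rank alone. The 11 negative relations that passed by r ran between Cldn1, Cldn4, Cldn5 and Cldn7 on one side and Cldn2, Cldn10, Cldn16 and Cldn19 on the other.

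**Figure D4:**
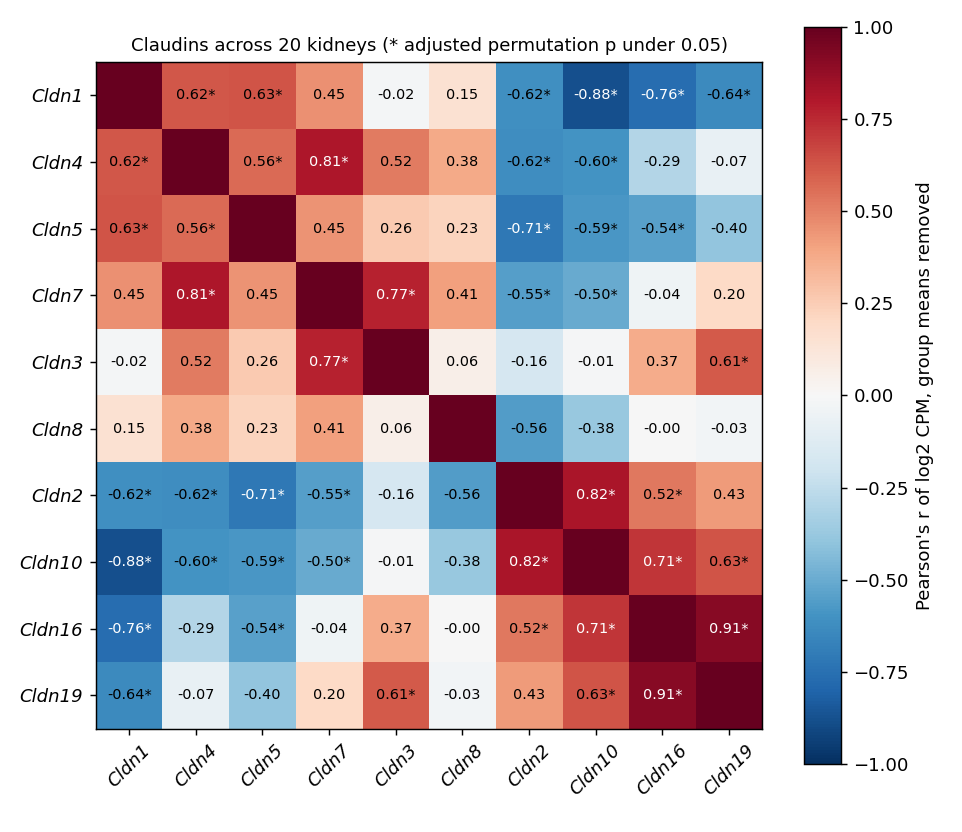
Pearson's r between the 10 claudins over 20 kidneys (colour from -1 to 1, value in each cell), on log2 CPM with group means removed, where a star marks an adjusted permutation p below 0.05. Cldn1, Cldn4, Cldn5 and Cldn7 form a red block, and Cldn2, Cldn10, Cldn16 and Cldn19 another, and most cells between the blocks are blue, while r was 0.20 for Cldn7 and Cldn19.

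Each claudin was also set against the summed CPM of markers of the cells it is known from, as a log2 ratio per animal without a test. The marker lists had 7 of 7 genes tested for the proximal tubule, 4 of 4 for the thick ascending limb, 6 of 6 for the principal cell, 4 of 4 for podocytes and 6 of 6 for endothelium, and none of their genes was at 0 in any animal. Relative to the principal cell markers, Cldn8 varied least, from -2.40 to -1.46 in the 20 animals, and the 4 animals lay at -1.997, -1.998, -1.92 and -2.38. Cldn4 on the same scale ran from -3.24 to -1.97 in the 20, with the 4 at -4.69, -4.77, -4.14 and -4.12. Cldn7 ran from -4.13 to -2.91 in the 20, with the 4 at -4.47, -4.44, -4.49 and -4.16. Both genes were thus lower per principal cell marker in each of the 4 animals than in any of the 20. Cldn3 did not separate them, with the 4 at -5.41, -6.12, -4.54 and -3.85 against -4.88 to -3.36 in the 20.

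Cldn2, Cldn19, Cldn16 and Cldn1 likewise had lower ratios in each of the 4 animals than in any of the 20. The summed markers were themselves higher in the 4, at 6733 to 11456 against 1996 to 6336 CPM for the proximal tubule. For the thick ascending limb they were at 9096 to 12549 against 1912 to 9022 CPM. In TPM, Cldn16 and Cldn19 lay inside the ranges of the 20, as did Cldn2 except in animal 38. The part of the marker sums in these ratios was not tested. Cldn2 over the proximal tubule markers ran from -3.82 to -2.37 in the 20, and the 4 animals were at -4.28, -4.57, -4.21 and -4.15. Cldn19 over the thick ascending limb markers ran from -6.25 to -4.61, and the 4 were at -6.92, -6.85, -6.98 and -7.10. Cldn16 over these markers ran from -6.80 to -5.65, and the 4 were at -6.96, -6.92, -7.06 and -7.74. Of the single limb markers, Umod was at 3713 to 4638 TPM in the 4 and 671 to 3784 in the 20. Slc12a1 was at 304 to 446 and 91.6 to 539 TPM, so both overlapped. Ratios to single markers are not given here. Cldn1 over the podocyte markers, the nearest list at hand for Bowman's capsule, ran from -4.06 to -2.84, and the 4 were at -5.62, -5.44, -5.41 and -5.26. Cldn10 over the thick ascending limb markers did not separate them, with the 4 at -6.00, -6.29, -5.75 and -5.56 inside -7.53 to -5.34. Cldn5 over the endothelial markers did not either, at -2.87, -3.33, -4.04 and -4.17 against -4.35 to -3.06.

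Between each treated group and Ctrl the ranges of these ratios overlapped for all 10 claudins, and Cldn5 over endothelial markers came closest to a separation, in CoCM. Its lowest, median and highest log2 ratios were -4.35, -3.98 and -3.68 in Ctrl and -3.73, -3.45 and -2.87 in CoCM. They were -4.04, -3.86 and -3.33 in i.p. ABCB5+ and -4.17, -4.03 and -3.61 in i.v. ABCB5+. The lowest CoCM animal was just below the highest Ctrl animal. The summed endothelial markers were at 343 to 706 CPM in CoCM and 551 to 700 in Ctrl, whereas Cldn5 itself had a log2 fold change of 0.24 ± 0.16 there. The part of the marker sum in the ratio was not tested.

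**Figure D5:**
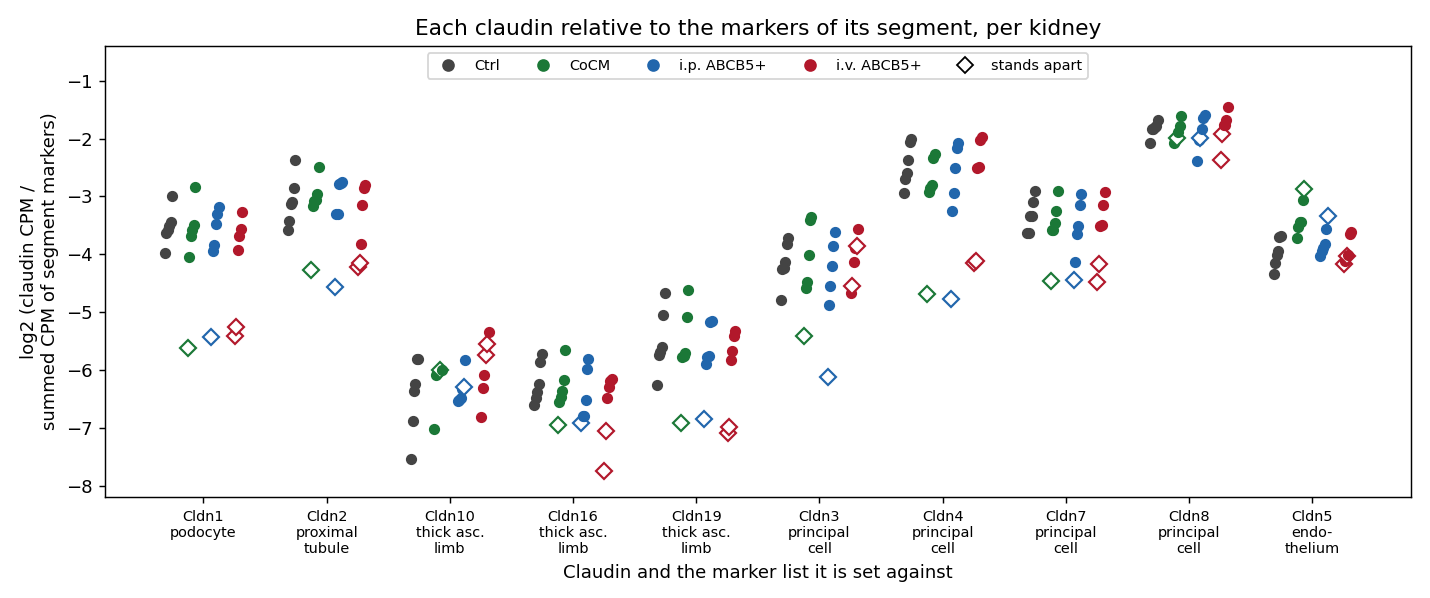
Log2 ratio of each claudin's CPM to the summed CPM of markers of its segment or cell type in every kidney, coloured by group, with open diamonds for the 4 animals that stood apart. The diamonds lie below all filled circles for Cldn1, Cldn2, Cldn4, Cldn7, Cldn16 and Cldn19 and among them for Cldn8 and Cldn10, and for Cldn3 and Cldn5 part of them do.

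Other tight junction genes gave the wider setting. Of 15 further claudins, 13 were in the tables and 9 passed the low-count filter. Cldn6, known from fetal epithelia, was at 18.2 to 42.7 TPM in the 20 animals and at 10.8 to 25.0 in the 4. Its neighbour Cldn9 was at 7.39 to 19.2 TPM in the 20 and at 3.80 to 10.1 in the 4. Cldn12, a calcium-permeable claudin of the proximal tubule, was at 13.1 to 21.6 TPM in the 20. Of the 9, 0 were called in any comparison with Ctrl in edgeR, and 1, 0 and 0 had an unadjusted p below 0.05 in CoCM, i.p. and i.v. ABCB5+, against 11.9%, 1.77% and 5.78% of all genes. The one was Cldn15, a cation pore best known from intestine, with a log2 fold change of -0.53 ± 0.20 in CoCM, 0 of 6 animals above the Ctrl mean and an adjusted p of 0.353. Cldn14 had 0.68 ± 0.68 in CoCM and Cldn22 0.39 ± 0.26 with i.p. cells and 0.44 ± 0.26 with i.v. cells. The median log2 fold changes of the 9 with CoCM, i.p. and i.v. cells were -0.085, 0.044 and -0.037. In the fit of 20 animals they were 0.043, 0.078 and -0.054, so the one in CoCM turned its direction. There 2, 0 and 0 of the 9 had an unadjusted p below 0.05, against 2179, 179 and 159 of 12884 genes.

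Of 9 measured transmembrane partners of the claudins, 0 were called in any comparison with Ctrl, and 1, 1 and 0 had an unadjusted p below 0.05 in the 3 groups, against 11.9%, 1.77% and 5.78% of all genes. Crb3, an apical polarity protein, had log2 fold changes of 0.27 ± 0.11, 0.32 ± 0.11 and 0.22 ± 0.11 with CoCM, i.p. and i.v. cells, and adjusted p of 0.383, 0.978 and 0.673 in edgeR. Treated animals above the Ctrl mean numbered 6, 5 and 5 of 6. Jam2, a junctional adhesion molecule, had -0.60 ± 0.32 in CoCM, and Ocln, the occludin gene, 0.22 ± 0.13 in i.p. ABCB5+. The median over the 9 was 0.016, 0.075 and 0.093 in CoCM, i.p. and i.v. ABCB5+. Leaving out the 4 animals, it was -0.071, 0.076 and 0.029, again with a turn in CoCM. In that fit 2, 1 and 0 of the 9 had an unadjusted p below 0.05, against 2179, 179 and 159 of 12884 genes.

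Of 13 measured plaque genes, which tie claudins to actin and polarity complexes, 0 were called in any comparison with Ctrl. In CoCM 10 of the 13 had a log2 fold change below 0, with a median of -0.18 against 0.0088 over all genes, and -0.19 without the 4 animals. Tjp1, the ZO-1 scaffold that binds the tails of claudins, had -0.42 ± 0.15 there, with 0 of 6 animals above the Ctrl mean, an unadjusted p of 0.011 and an adjusted p of 0.350 in edgeR. Prkci, an atypical protein kinase C of the polarity complex, had -0.27 ± 0.12, -0.23 ± 0.12 and -0.26 ± 0.12 with CoCM, i.p. and i.v. cells, and adjusted p of 0.404, 0.978 and 0.673. With i.p. and i.v. cells the plaque medians were -0.043 and 0.0048, and without the 4 animals -0.037 and -0.031, so the one with i.v. cells turned its direction. In CoCM, i.p. and i.v. ABCB5+, 2, 0 and 2 of the 13 had an unadjusted p below 0.05, against 11.9%, 1.77% and 5.78% of all genes. Without the 4 animals 5, 0 and 0 of the 13 did, against 2179, 179 and 159 of 12884 genes.

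Of 12 measured claudin regulators and genes of divalent cation handling, 0 were called in any comparison with Ctrl. An unadjusted p below 0.05 was found for 0 of them, against 11.9%, 1.77% and 5.78% of all genes with CoCM, i.p. and i.v. cells. Log2 fold changes above 0 numbered 11 of 12 in each, and the medians over CoCM, i.p. cells and i.v. cells were 0.15, 0.34 and 0.11. Without the 4 animals these medians were -0.11, 0.071 and 0.053, so the one in CoCM turned its direction. Fxyd2, a subunit of the sodium pump, had 0.65 ± 0.39, 0.81 ± 0.39 and 0.65 ± 0.39, and 0.26, 0.31 and 0.051 without the 4. Egf, the epidermal growth factor gene of the distal nephron, had 0.76 ± 0.57 with cells by either route, and 0.048 and 0.055 without them.

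For each claudin the 2 genes with the most similar pattern were sought among 11753 genes, by Pearson's r of log2 CPM over the 20 animals with group means removed. They were picked as the highest of many, so r is a description. Cldn16 was nearest to Slc12a1, the sodium-potassium-chloride cotransporter of the thick ascending limb (r = 0.94), and to the transcription factor gene Irx2 (r = 0.93). Cldn19 was nearest to Ppp1r1b (r = 0.93), a phosphatase inhibitor gene, and Ppp1r36 (r = 0.93). Cldn10 was nearest to Tpmt, which methylates thiopurines (r = 0.98), and Sugct (r = 0.97), an enzyme of glutarate metabolism. Cldn2 was nearest to Gpc4, a cell-surface glypican (r = 0.95), and Cct6a, a chaperonin subunit (r = 0.95). Cldn8 was nearest to Tfap2a, a transcription factor gene (r = 0.94), and Tmem38a (r = 0.93). Cldn7 was nearest to the tetraspanin gene Tspan1 (r = 0.92) and Trip10 (r = 0.91), and Cldn4 to the transcription factor gene Tfe3 (r = 0.88) and Hsd3b7 (r = 0.86). Cldn1 was nearest to Ugcg, which makes glucosylceramide (r = 0.91), and Arl4c (r = 0.90), Cldn3 to Upk3bl1 (r = 0.89) and Pinlyp (r = 0.88), and Cldn5 to Igfbp2, which binds insulin-like growth factors (r = 0.90), and Leprot (r = 0.84). Over all 24 animals r was 0.98 for both Tpmt and Sugct with Cldn10, 0.44 for Leprot and Cldn5 and 0.66 for Gpc4 and Cldn2.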

How the data were processed

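RNA of whole left kidney of 24 rats was sequenced on a BGISEQ-500. Per the labels, the submitters' processing notes name Trim Galore 0.6.4, kallisto 0.4.6 and the rat build rn6, while the methods of the study name a package of human gene models. The annotation behind the rat values was not given in the sources used here. For each animal the authors deposited estimated counts, which were not normalized and of which 86.4% to 87.3% per animal were whole numbers, and TPM values scaled to transcript length, which summed to 964191 to 976409. Symbols came from a RefSeq table of GRCr8, which held 17179 of the 17334 gene identifiers. Its gene coordinates were not used to compute these values, whose build differs. They served for the promoter windows and the chromosome neighbours named above.

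Groups and animal numbers were taken from the labels, which name separate animals and no batch. No 2 animals of a group looked like 1 library, since chi-square divided by its degrees of freedom was at least 10.6 for every pair. Estimated counts were rounded, filtered with filterByExpr, scaled by TMM and fitted with 1 mean per group over all 24 animals in edgeR 4.0.16 (R 4.3.3). The quasi-likelihood F-test was adjusted by the Benjamini-Hochberg method over 12778 genes at 0.05. The SE is the size of the log2 fold change divided by the square root of F. Depth was 9304630 to 14125457 counts per animal, and the limit of 3 counts covers counting error only. The fit was tested on simulated counts. DESeq2 1.42.0, the tool of the study, was an alternative, as were its size factors, no low-count filter, limma 3.58.1 on log2(TPM + 1), fits of only the compared groups, leaving out each animal, and leaving out the 4 animals that stood apart. Values of log2(TPM + 1) understate the change of low genes.

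The members, lists and the 4 animals were chosen with earlier results of these data known. Named were the 10 claudins, up to 3 genes of each list with the smallest unadjusted p per comparison with Ctrl, and the 2 genes most like each claudin among those with average log2 CPM above 1. The tight junction lists under other settings, and the segment ratios without the 4 animals, were alternatives chosen after seeing the data. A further gene that this rule selects is not reported here. Cldn6, Cldn9 and Cldn12 were added after their values were seen. Near-identical claudin copies could share reads, and the strand of the counting was not given in the sources used here. Animals given adipose-derived cells were not analysed here.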

Additional observations from a re-analysis of the deposited data

Results flagged for a closer look

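Cldn16 in Ctrl animal 24 was far from the other untreated animals. It was at 85.4 TPM, whereas the other 5 ranged from 37.8 to 53.1 TPM, a gap of 0.679 of the group's whole range and past Dixon's limit for 6 animals. In all, 40 groups of values were examined, 10 claudins in 4 groups, in which chance gives about 2 such values, and 1 was found. In the same animal Cldn19 was at 102 TPM, the highest of the Ctrl group.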

How the results depend on the processing

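The count of claudins called was 0 in each of the 6 comparisons under all alternatives run, and the smallest adjusted p of a claudin in any of them was 0.313. No paired analysis was possible because no animal number occurs in more than 1 group. Claudin pairs with an adjusted permutation p below 0.05 numbered 22 over 20 animals, 16 over all 24 animals and 19 on log2(TPM + 1). The 50 fold changes of the claudins gave 300 values under the 6 alternatives that leave out no single animal, of which 25 changed sign, and 1200 values with 1 animal left out, of which 71 did. Over all 24 animals the fold changes that changed sign were at most 0.31 in size, and none was past the threshold. Those the text or the plots report are given here on the log2 scale. Without the 4 animals that stood apart, Cldn4 was 0.022 with CoCM, 0.092 with i.p. and 0.20 with i.v. cells, Cldn2 0.067 and Cldn5 -0.0015 with i.p. cells, Cldn7 0.064 with i.v. cells, and Cldn10 0.47 for i.p. minus i.v. cells. With limma on log2(TPM + 1), Cldn2 was -0.045 with CoCM, Cldn3 -0.055 with i.p. cells, and Cldn5 -0.068, Cldn8 -0.037 and Cldn19 -0.050 with i.v. cells. Cldn5 with i.v. cells was -0.0015 in DESeq2, -0.0016 with its size factors and -0.0063 without the low-count filter. Leaving out 1 animal at a time, with CoCM Cldn2 ranged from -0.044 to 0.15 and Cldn4 from -0.27 to 0.031. With i.p. cells Cldn2 ranged from -0.12 to 0.085, Cldn3 from -0.087 to 0.16, Cldn4 from -0.18 to 0.086, Cldn5 from -0.0065 to 0.19 and Cldn7 from -0.060 to 0.092. With i.v. cells Cldn5 ranged from -0.083 to 0.093, Cldn8 from -0.056 to 0.18, Cldn16 from -0.010 to 0.33 and Cldn19 from -0.11 to 0.19. Cldn10 for i.p. minus i.v. cells ranged from -0.56 to 0.16, and with i.v. cells against Ctrl from 0.62 to 1.38. Calls over all genes in CoCM were 1 in edgeR and 78 in DESeq2. The depth allowed all 10 claudins to be counted in every library.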
